A study of Homo sapiens with 6 samples.

Results

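ALB, AFP, AFM and GC, the 4 genes of the albumin family cluster on chromosome 4, were examined for occupancy by RNA polymerase II (RNA pol II) in HepG2 cells. They encode albumin, alpha-fetoprotein, afamin and the vitamin D-binding protein. A region was assigned to a gene when the nearest gene that the authors gave for it was a member. This rule found 27 of the 271336 regions in 4 lists, and all 27 belonged to ALB or AFP. The list of RPB1 regions held 10 member regions of 46045 in WT cells and 9 of 41605 in SHP-1 KO cells. The list of phospho-Ser2 RPB1 (pSer2) regions held 4 of 102674 in WT and 4 of 81012 in SHP-1 KO cells. AFM and GC had no region in any list, as did 35.1% of the 19962 protein-coding genes.

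HepG2 is an established human liver tumor line. The SHP-1 WT (WT) cells were the CRISPR control, the SHP-1 KO (KO) cells carried a CRISPR knockout of PTPN6, the gene for the tyrosine phosphatase SHP-1, and both were untreated. The study's methods describe the lines as single cell clones, with a nontargeting guide for controls, and do not say which clone was used for these libraries. Each antibody was used on 1 library per cell type, so no contrast of KO with WT has a replicate check, and clone and genotype cannot be told apart. In ChIP-seq, cross-linked DNA bound by a protein is recovered with an antibody and sequenced, and MACS2 calls the stretches where reads exceed those of the input DNA. The fold enrichment is the ratio to input at the summit, the highest point of a region, as the authors computed it. Fold enrichments of different antibodies and libraries share no scale, so ranks within a list are given for the longest regions of ALB and AFP. The lists carry no read counts and the depth is unknown. The smallest −log10 q-value was 1.31.

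Albumin is the most abundant protein of plasma and is made by hepatocytes. Alpha-fetoprotein is its fetal counterpart, is largely shut off in the liver after birth and returns in many liver tumors. Afamin binds vitamin E and the vitamin D-binding protein carries vitamin D metabolites. The genes arose by duplication from a common ancestor. RPB1 is the largest subunit of RNA pol II. Serine 2 of the repeats in its tail is phosphorylated while the enzyme elongates, and this mark is known to build up toward the end of genes.

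In hg38, with the canonical transcripts of GENCODE release 44, ALB (ENSG00000163631.18) lies on the forward strand of chromosome 4 from 73404287 to 73421482 and has 15 exons. AFP (ENSG00000081051.8) follows on the same strand from 73436221 to 73456174, 14.7 kb past the end of ALB. AFM (ENSG00000079557.5) comes next, from 73481745 to 73504001, 25.6 kb past the end of AFP. GC (ENSG00000145321.13) lies apart from them on the reverse strand, from 71741697 to 71784079, with 1620 kb between it and ALB.

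The 200 bases before the transcript start are shown for the 3 members found in the RefSeq promoter table (GRCh38.p14, forward strand), because the long regions of ALB and AFP begin within or just before them. Capitals mark GTTAAT, a motif known from liver promoters, TATAAA, the TATA box, and the CCAAT box. A forkhead motif, TGTTTAC, was searched as well, and all were searched on both strands.
ALB, chr4:73404087-73404286: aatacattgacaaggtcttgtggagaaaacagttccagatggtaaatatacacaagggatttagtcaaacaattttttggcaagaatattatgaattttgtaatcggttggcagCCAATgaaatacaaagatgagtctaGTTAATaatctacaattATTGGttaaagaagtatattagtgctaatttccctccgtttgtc
AFP, chr4:73436021-73436220: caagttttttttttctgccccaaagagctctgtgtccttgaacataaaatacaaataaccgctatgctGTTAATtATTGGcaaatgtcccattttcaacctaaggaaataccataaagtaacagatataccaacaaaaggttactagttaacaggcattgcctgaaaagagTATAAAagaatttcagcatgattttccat
AFM, chr4:73481545-73481744: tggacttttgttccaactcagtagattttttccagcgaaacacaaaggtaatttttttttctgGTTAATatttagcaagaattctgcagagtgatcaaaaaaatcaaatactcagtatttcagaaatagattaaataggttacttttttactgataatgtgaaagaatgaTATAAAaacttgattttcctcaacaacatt

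GTTAAT stood in all 3 windows, from −61 to −56 in ALB, −132 to −127 in AFP and −137 to −132 in AFM, counted from the transcript start. It occurred in 4.89% of the 35116 RefSeq promoters in windows of the same length. TATAAA stood from −29 to −24 in AFP and from −30 to −25 in AFM but not in ALB, and occurred in 8.59% of promoters. Both motifs were present together in AFP and AFM, and in 0.834% of promoters. CCAAT occurred in ALB from −86 to −82, and as its complement ATTGG from −44 to −40, and in AFP as the complement from −125 to −121. It occurred in 28.0% of promoters. TGTTTAC was in none of the 3 windows and in 2.32% of promoters. None of these matches overlapped another. A match describes the letters only. AFM, without any region, thus carried the same GTTAAT and TATAAA letters as AFP.

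ALB and AFP were each covered from end to end by occupied regions with both antibodies. At ALB, 1 RPB1 region ran from 73403839 to 73423362 in WT cells, a length of 19524 bp that began 448 bp before the transcript start, included all 15 exons and ended 1880 bp past the transcript end. In KO cells the matching region ran from 73404007 to 73422912, a length of 18906 bp, and was followed after 74 bp by a region of 292 bp. Both long regions had rank 5 by length in their list, where the median region was 443 bp long in WT and 423 bp in KO cells.

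**Figure D1:**
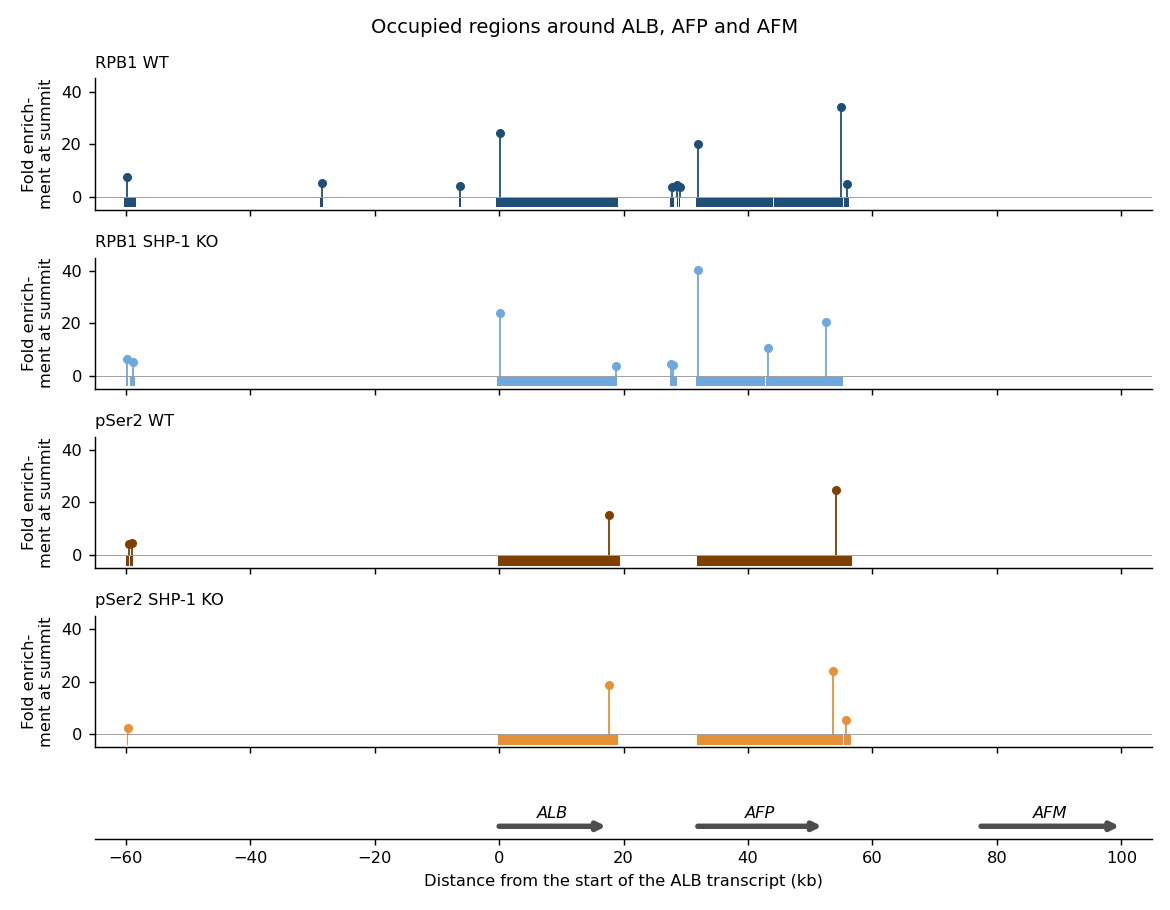
Occupied regions around ALB, AFP and AFM in the 4 lists, with the distance from the start of the ALB transcript in kb on the x axis. Bars under the zero line span each region, stems with points give the fold enrichment at the summit on the y axis, and arrows show the transcripts. The RPB1 summit of ALB lies at the start of the gene and the pSer2 summit past its end, and AFM has no region.

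The summit of the ALB region lay at opposite ends of the gene for the 2 antibodies. For RPB1 it was in exon 1, 85 bp past the transcript start in WT and 81 bp past it in KO cells, with fold enrichments of 24.4 and 24.1. For pSer2, the region ran from 73404135 to 73423691 in WT and from 73404156 to 73423337 in KO cells, and in both the summit was the same base, 470 bp past the transcript end. The fold enrichment there was 15.1 in WT and 18.6 in KO cells.

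By rank, the ALB region was far higher in the pSer2 lists than in the RPB1 lists. It had rank 7116 by fold enrichment in WT and 4499 in KO cells for RPB1, but rank 570 and 231 for pSer2. By −log10 q-value, which also grows with the number of reads, its ranks were 2584 and 2652 for RPB1 and 35 and 51 for pSer2. The −log10 q-values were 172 and 102 for RPB1 and 249 and 196 for pSer2. Taken gene by gene, with the strongest region of each gene, ALB stood at percentile 52.5 (WT) and 67.7 (KO) for RPB1 and at 95.9 and 98.1 for pSer2. The long RPB1 region of ALB was thus near the middle in height in WT cells, among the 14164 genes with a region in that list. Its rank of 5 was by length.

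AFP had the same layout with a break in RPB1. In WT cells, an RPB1 region of 12470 bp (73435903 to 73448372) held the first 8 exons whole and a region of 11080 bp (73448475 to 73459554) held the other 7, with 102 bp between them. In KO cells there were 3 regions over the gene, of 11175 bp (73435922 to 73447096), 1244 bp (73447148 to 73448391) and 11122 bp (73448475 to 73459596). The last of these began at the same base in both cell types. The 2 long regions had ranks 35 and 51 by length in WT and 35 and 37 in KO cells.

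The RPB1 summits of AFP were higher at the start of the gene in KO cells and higher at its end in WT cells. The region over the start had a fold enrichment of 20.2 in WT, with the summit 72 bp past the transcript start, and of 40.2 in KO cells, with the summit at 93 bp. This is a ratio of 1.99 between summits 21 bp apart. The region over the end had a fold enrichment of 34.2 in WT, with the summit 2989 bp past the transcript end, and of 20.6 in KO cells, with the summit at 704 bp. That ratio was 0.601, and it compares summits 2285 bp apart. The strongest RPB1 region of AFP was therefore a different one in the 2 cell types. By fold enrichment within its list, the region over the start had rank 8406 in WT and 1291 in KO cells (percentiles 81.7 and 96.9). The region over the end had rank 4452 and 5773 (percentiles 90.3 and 86.1), so by rank the 2 cell types differed less at the end than at the start. The middle region seen in KO cells had its summit in intron 7 and a fold enrichment of 10.5.

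For pSer2, 1 region covered all of AFP in both cell types. It was 24846 bp long in WT (73436091 to 73460936) and 23549 bp long in KO cells (73436073 to 73459621), where a region of 1056 bp with a fold enrichment of 5.48 followed after 89 bp. The fold enrichments were 24.7 and 24.2, and the summits lay 2193 and 1802 bp past the transcript end, 391 bp apart. These regions had rank 83 and 67 by fold enrichment, 12 and 17 by −log10 q-value (296 and 241) and 19 and 16 by length. AFP thus ranked above ALB by height in all 4 lists and by −log10 q-value in 3, the exception being RPB1 in WT cells, where ALB had rank 2584 and the AFP regions 4557 and 4758. Among genes, AFP stood at percentile 69.4 and 90.6 for RPB1 and at 99.4 in both pSer2 lists.

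**Figure D2:**
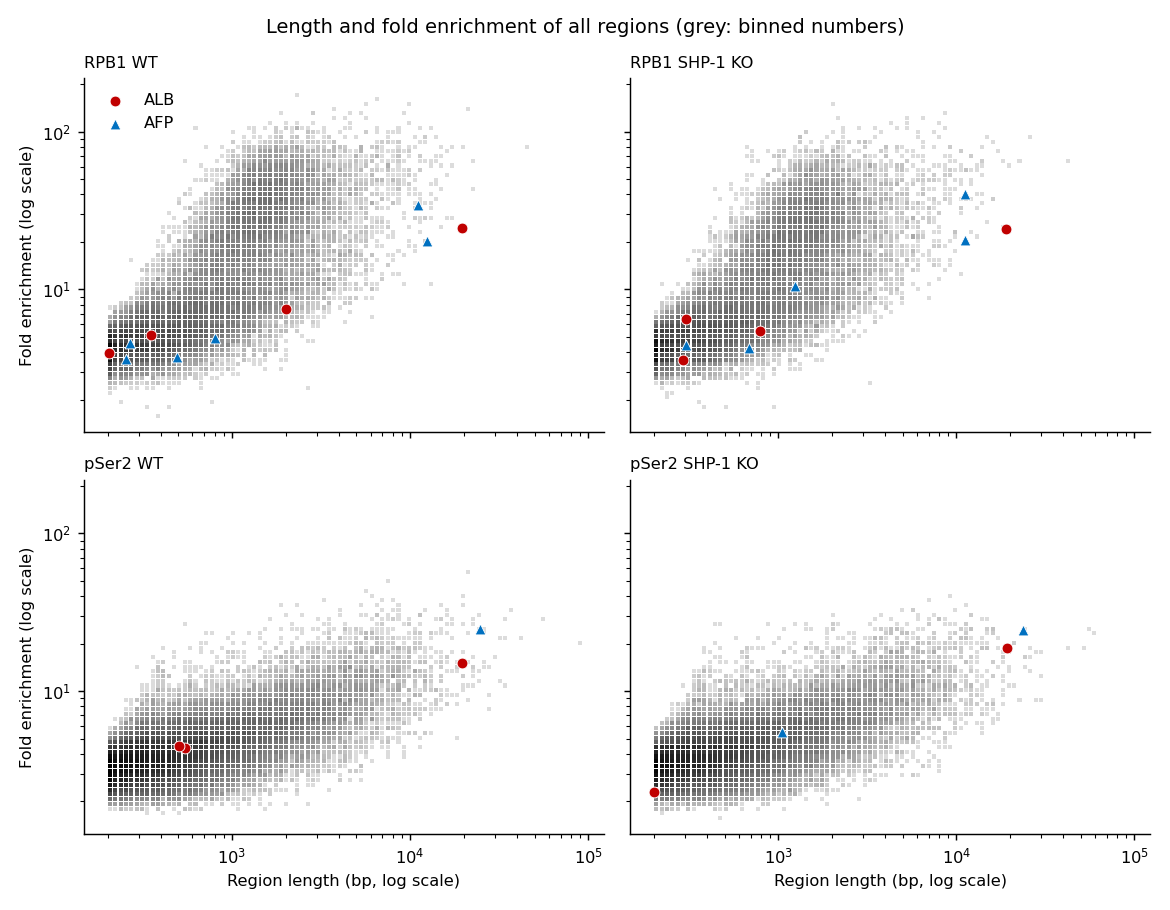
Length (x axis, bp, log scale) and fold enrichment at the summit (y axis, log scale) of all regions in each list, in grey bins that darken with the number of regions, with the regions of ALB (red circles) and AFP (blue triangles) drawn singly. The long regions lie at the right edge of each panel, near the top of the pSer2 panels and lower among the RPB1 regions, where ALB had fold enrichments of 24.4 and 24.1.

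The share of the transcript covered was 100% for ALB in all 4 lists. For AFP it was 99.5% and 99.3% for RPB1 in WT and KO cells and 100% for pSer2 in both. It was 0% for AFM and GC in every list. Coverage of at least 90% was thus reached by 2 of the 4 members in each list, beside 2.26% and 1.85% of the protein-coding genes for RPB1 in WT and KO cells and 2.17% and 1.97% for pSer2. It was rarer among long genes. Of the 11423 protein-coding genes at least as long as ALB, 9 in the WT and 11 in the KO list were covered to this extent by RPB1 and 53 and 48 by pSer2. In all 4 lists there were 9 such genes. Besides ALB and AFP these were APOB, APOH and F2, which encode plasma proteins, and BCAN, FASN, MLXIPL and P4HB, which were named after their values were seen.

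**Figure D3:**
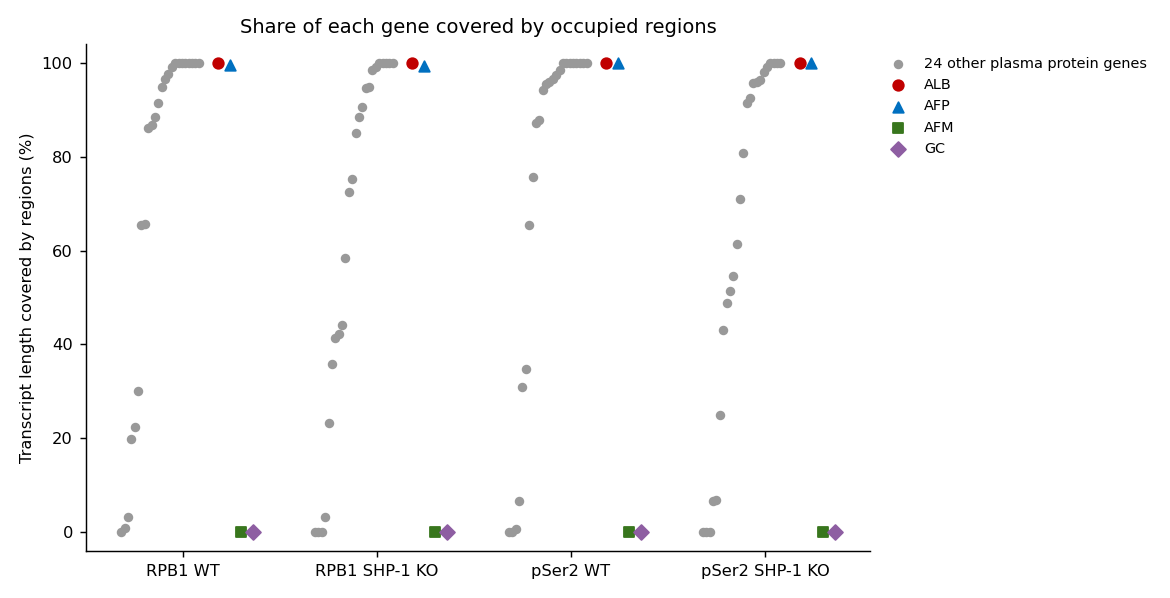
Share of the transcript length covered by occupied regions (y axis, percent) in each of the 4 lists, for ALB, AFP, AFM and GC and for 24 other plasma protein genes as grey points in rising order. ALB and AFP lie at 99.3% or above in every list, AFM and GC at 0%, and the other plasma protein genes between 0% and 100%.

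AFM and GC were the members without occupancy. The region nearest to AFM was 21.2 and 22.1 kb away for RPB1 and 20.8 and 21.0 kb away for pSer2 (WT and KO), and in each list it was one assigned to AFP. The region nearest to GC was between 747.5 and 748.9 kb away. It was assigned to DCK, which was named after its values were seen. An absent region means only that no enrichment passed the threshold at an unknown depth. Among 7 other genes of the neighbourhood, COX18 and ANKRD17 had regions for both antibodies, with RPB1 fold enrichments of 33.8 and 51.5 in WT cells. SLC4A4, NPFFR2, ADAMTS3, RASSF6 and CXCL8 had none.

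Both genes also had smaller regions before their starts. About 60 kb before ALB, the WT RPB1 list held a region of 2020 bp (73343994 to 73346013, fold enrichment 7.48) and the KO list 2 regions within the same stretch, with fold enrichments of 6.48 and 5.46. The pSer2 lists held 2 regions there in WT (4.35 and 4.45) and 1 in KO cells (2.28). All of these were classed as distal intergenic. The pSer2 region of KO cells was weak, with a length of 200 bp, a −log10 q-value of 1.80 and rank 79789 of 81012 by fold enrichment, and it was lost at a −log10 q-value of at least 5. For RPB1, 2 more regions lay between it and the canonical start in WT cells, with summits at −28525 and −6358 bp from the start and fold enrichments of 5.12 and 3.95. Neither had a counterpart in KO cells. The nearer one lies inside the longer gene model of ALB, whose alternative starts reach up to 73397114.

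Before AFP, RPB1 was found in 3 short regions in WT cells, with summits at −4079, −3284 and −2922 bp from the start and fold enrichments of 3.75, 4.57 and 3.62, and in 2 in KO cells, at −4333 and −3962 bp with 4.43 and 4.27. GENCODE places alternative starts of the AFP gene as far up as 73431138, so these regions also lie inside the longer gene model. No pSer2 region was assigned there. A further WT RPB1 region of 804 bp lay past the end of AFP, with its summit 4019 bp beyond the transcript and a fold enrichment of 4.88.

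Of the 10 WT RPB1 regions of the members, 6 were overlapped by at least 1 bp of a KO region (60%, 95% Wilson interval 31.3 to 83.2%), beside 61.9% of all WT regions. For pSer2, 3 of 4 were (75%, 30.1 to 95.4%), beside 52.2%. The intervals cover counting error only and treat the regions as independent, though many lie side by side along the same gene. At 73432818, before AFP, the overlap was of 1 bp only. All 9 RPB1 and all 4 pSer2 regions of KO cells overlapped a WT region. The share of all KO regions that overlap a WT region was not computed, so these counts have no background to be read against. The WT regions without overlap were between 204 and 804 bp long, with fold enrichments between 3.62 and 5.12.

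Of the 6 overlapped RPB1 regions, 1 was at least 1.5-fold higher in KO cells (the start of AFP), beside 10.7% of all overlapped regions, and 1 was at least 1.5-fold lower (the end of AFP), beside 23.8%. Of the 3 overlapped pSer2 regions, 0 were higher by this measure, beside 12.6%, and 1, the distal ALB region with a ratio of 0.524, was lower, beside 9.09%. The long ALB region had ratios of 0.990 for RPB1 and 1.23 for pSer2, and the AFP pSer2 region 0.979.

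Compared by the strongest region of each gene, 0 of the 2 occupied members passed 1.5-fold in either direction. For RPB1 at AFP, this measure sets the region over the gene start in KO cells against the one over the gene end in WT cells. Paired by overlap, the AFP regions over the start and over the end both passed 1.5-fold, with ratios of 1.99 and 0.601 (log2 0.99 and −0.73). The summits compared lay 21 bp apart at the start but 2285 bp apart at the end. For RPB1, 2.68% of 12877 genes were at least that much higher and 36.1% at least that much lower in KO cells. The log2 ratio of KO to WT was −0.015 for ALB and 0.23 for AFP, and the median over these genes was −0.43. ALB and AFP stood at percentiles 81.5 and 91.3 of the ratios, 0.42 and 0.66 above the median on the log2 scale. For AFP this order turned with the region taken, since the −0.73 at the end of the gene is below the median. That value is of 1 pair of overlapping regions, and the median over all 28495 overlapping RPB1 regions was −0.21, which it is also below. For pSer2, 5.71% of 10870 genes were higher and 11.7% lower past 1.5-fold. The log2 ratios were 0.30 for ALB and −0.031 for AFP, at percentiles 83.5 and 56.3, with a median of −0.095.

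**Figure D4:**
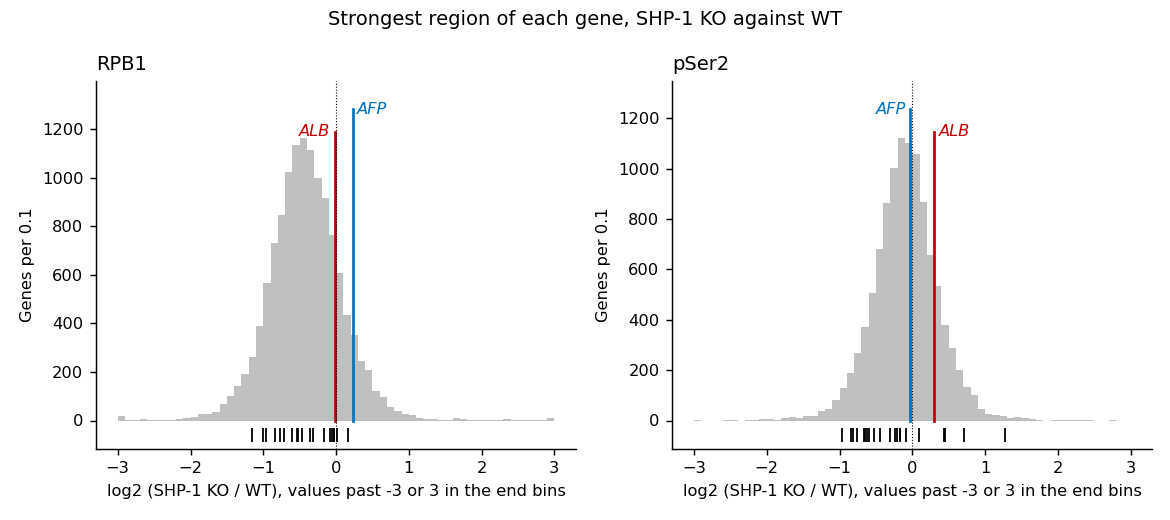
Log2 ratio of KO to WT for the strongest region of each gene (x axis) and the number of genes per bin of 0.1 (y axis, grey), for RPB1 and pSer2, with lines at ALB and AFP and ticks for the other plasma protein genes. For RPB1, ALB at −0.015 and AFP at 0.23 lie to the right of the median of −0.43, and the AFP value sets different regions of the gene against each other.

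Other plasma protein genes of the liver had RPB1 ratios close to those of all genes. Of 24 such genes, 23 had an assigned RPB1 region in WT and 19 in KO cells, and 19 had one in both. Over all genes, 14164 and 13459 had one, and 12877 had one in both. APOA2 had none assigned in KO cells though its transcript was 100% covered, so assignment by nearest gene can remove a gene from the ratio. Of the 19 genes, 17 were lower and 2 higher, 7 being at least 1.5-fold lower and 0 at least 1.5-fold higher. Over all genes 17.9% were higher, and 36.1% were at least 1.5-fold lower, so these counts are near the background. Their median log2 ratio was −0.47, near the −0.43 of all genes, with a range of −1.16 to 0.16. The 2 higher ones were AMBP, which encodes a precursor of alpha-1-microglobulin and bikunin (32.7 in WT and 36.5 in KO cells), and RBP4, the plasma carrier of retinol (103.7 and 104.8). TF, which encodes transferrin, had fold enrichments of 93.8 and 46.7, and C3, the central complement component, 81.8 and 36.7. ALB at −0.015 was inside this range. The AFP log2 ratio was above it by the strongest region (0.23) and over the gene start (0.99), and inside it over the gene end (−0.73). The values over the start and the end are of single overlapping regions, whereas the range is of strongest regions.

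For pSer2, 21 of the 24 genes had a region in both lists, 5 higher and 16 lower in KO cells, with 2 at least 1.5-fold higher and 8 at least 1.5-fold lower, beside 40.3% of all genes higher, 5.71% past 1.5-fold higher and 11.7% past 1.5-fold lower. The median log2 ratio was −0.31, below the −0.095 of all genes, with a range of −0.97 to 1.27. ALB and AFP both lay above that median. Coverage of at least 90% was found for 13 of the 24 genes in WT and 10 in KO cells with RPB1, and for 14 and 11 with pSer2. Such coverage was thus shared by many genes of this class, to which AFM and GC belong by function.

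Genes for known or proposed regulators of the family were occupied as well. Of 18 such genes, 16 had an RPB1 region in both lists, with a median log2 ratio of −0.44. Of these, 2 were higher and 14 lower, 5 of them at least 1.5-fold lower and 0 at least 1.5-fold higher, again near the 17.9% of all genes that were higher and the 36.1% that were at least 1.5-fold lower. CEBPA, which encodes a factor of hepatocyte differentiation, had RPB1 values of 146 and 133. ZHX2 and ZBTB20, which encode repressors of AFP in the liver, had RPB1 values of 27.9 and 15.1, and of 21.4 and 15.5. Both ZHX2 and ZBTB20 were thus lower in KO cells, as were most genes.

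For pSer2, 14 of the regulator genes had a region in both lists, with a median log2 ratio of −0.22, 2 at least 1.5-fold higher and 2 at least 1.5-fold lower, beside 5.71% and 11.7% of all genes. Without a threshold, 5 were higher and 9 lower, beside 40.3% of all genes higher. Past 1.5-fold, the lower ones were HNF4A (8.19 and 4.68) and CEBPB (10.4 and 3.58), and the higher ones NFIA (6.40 and 10.3) and FOXA3. FOXA3, a forkhead factor gene of the liver, had pSer2 values of 12.8 and 20.2, while its RPB1 values were 91.5 and 61.0. ZBTB20 had no pSer2 region in either list.

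The genes whose strongest regions were most like those of the members over the 4 lists were found by the Euclidean distance of the log2 fold enrichments, over 9237 genes with a region in every list. The nearest to ALB were DHX34 (distance 0.28), SPNS2 (0.30) and ATAT1 (0.32), and their transcripts were covered over 9.29 to 25.6% of the length. The nearest to AFP were KRBA2 (0.38), LYZ and DHRS2 (both 0.39). LYZ and DHRS2 were covered completely in all 4 lists and KRBA2 over 3.15 to 10.1%. The height of the strongest region alone thus placed ALB beside genes with far shorter occupied stretches.

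The liver identity of the cells was checked with markers. All 10 liver markers had a region inside the gene in all 4 lists. The share of all protein-coding genes with such regions was not computed. Not every liver gene was occupied. Of the 24 other plasma protein genes, 23 and 19 had an assigned RPB1 region in WT and KO cells, and 22 and 21 a pSer2 region. HPX had none in any list, HP had 1 in the WT RPB1 list only, and PLG had none in KO cells. Of 12 markers of other cell types, 10 had none in any list. Of the others, the endothelial PECAM1 had a region in all 4 lists, and regions covered at most 13.2% of any of these 12 genes. At PTPN6, the strongest RPB1 region had a fold enrichment of 23.95 in WT and 17.2 in KO cells, and the strongest pSer2 region 4.03 and 5.24. Occupancy of this gene does not measure the SHP-1 protein and so does not check the labels.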

How the data were processed

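ChIP-seq of RPB1 and of pSer2 was done in HepG2 cells of both genotypes, with 1 library each. The input libraries were not analysed here. The authors used Trimmomatic for trimming and BWA for alignment to hg38 (MUGQIC pipeline), called narrow peaks per library with MACS2, using the matching input as control, and annotated each region with its nearest gene. Tool versions are not given in the sources used here. The deposited lists hold the fold enrichment at each summit relative to input (a ratio), the −log10 p-value and −log10 q-value, and a score that is 10 times the −log10 q-value cut to a whole number. A deposited table of the authors' csaw comparison of RPB1, with numbers of windows going up and down, p-values and a direction per region, was not used.

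Regions were counted as listed, overlap required at least 1 bp, and start positions are counted from 1. The strongest region of a gene is the one with the highest fold enrichment among those assigned to it. A difference was called past 1.5-fold. With 1 library per condition no test was run. Coverage is the union of all regions within the canonical transcript of GENCODE release 44, whatever gene they were assigned to. RefSeq promoter sequences were identical to hg38 for the 3 members found. The depth is unknown, since the lists carry no read counts. The functions were tested on simulated data. Some listed genes and 1 sequence are not reported here. Python 3.11.15, pandas 2.3.3, NumPy 2.4.6, SciPy 1.17.1 and Matplotlib 3.10.9 were used.

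The members and gene lists were chosen with earlier results of these data known. The genes named are the 4 members, lists of neighbours, regulators, other plasma proteins and markers, PTPN6, and the 3 genes nearest to each member with a region in all 4 lists. Any other gene is marked as chosen after its values were seen. Alternatives tried were genes by position, a stricter −log10 q-value, merged intervals, a reciprocal overlap, promoter regions only, centring on the median, a mean weighted by length, a 2-fold threshold, other gene limits and percentiles among genes. Those for the regions over the transcript start or end, the whole gene and the overlap from SHP-1 KO to WT were added after the data were seen.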

Additional observations from a re-analysis of the deposited data

How the results depend on the processing

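No paired analysis was possible because there was 1 library per condition, and for the same reason no replicate could be left out. Values are in the order RPB1 WT, RPB1 SHP-1 KO, pSer2 WT and pSer2 SHP-1 KO where 4 are given. Taking regions by position, from 3 kb upstream of a gene to its end, gave 4, 4, 2 and 2 regions in place of 10, 9, 4 and 4. A reciprocal overlap of at least 50% lowered the share of WT RPB1 regions with a SHP-1 KO counterpart from 60% to 30%. That of pSer2 regions fell from 75% to 50%. Counting from SHP-1 KO to WT gave 100% for both antibodies. The shares over all regions were not computed for these settings or for the stricter −log10 q-value. Less the median over all genes, the log2 ratios were 0.42 (ALB) and 0.66 (AFP) for RPB1 and 0.40 and 0.063 for pSer2, and as means weighted by region length 0.031 and 0.17 for RPB1 and 0.34 and −0.080 for pSer2. ALB for RPB1 and AFP for pSer2 were slightly below 0 as reported, and centring on the median over genes put both above 0. The median over overlapping regions was −0.21 for RPB1 and 0.029 for pSer2. ALB for RPB1 was above the former and AFP for pSer2 below the latter, so the sign for AFP depended on the median chosen. The RPB1 ratio of AFP was 0.99 over the transcript start and −0.73 over the transcript end, so its direction depended on which region was taken. With 3 kb added on each side, coverage was 84.2, 82.8, 84.3 and 82.7% for ALB and 90.1, 89.1, 88.9 and 89.0% for AFP. With the whole gene including alternative starts it was 73.2, 71.7, 71.2 and 71.1% for ALB and 84.6, 84.3, 80.2 and 80.3% for AFP. Among genes rather than regions, the percentile of the strongest region was 52.5, 67.7, 95.9 and 98.1 for ALB and 69.4, 90.6, 99.4 and 99.4 for AFP. A −log10 q-value of at least 5 left 7, 8, 4 and 3 regions, gave an overlap of 71.4% for RPB1 and 50% for pSer2, where the distal ALB region of SHP-1 KO cells was lost, and left the coverage of ALB and AFP as reported. Merged intervals and promoter regions only gave the values reported in 4 results each, and a 2-fold threshold in 2.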
